A study of Mus musculus with 20 samples.

Results

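The genes described here are 10 transcripts used as markers of fat cells, chosen by symbol from the deposited gene table: Adipoq, Cfd, Retn, Plin1, Plin4, Cidec, Lpl, Fabp4, Pparg and Car3. All 10 were found among 32285 genes in the table. They were followed in 20 bulk tumours of the mouse melanoma line B16F10, raised in wild-type C57BL/6 mice with an intact immune system. Mice in the combination group (n = 5) received propafenone and anti-PD-1, those in the anti-PD-1 group (n = 5) received the antibody, those in the propafenone group (n = 5) received the drug, and those in the IgG group (n = 5) received control IgG. Injections were intraperitoneal and began once tumours measured about 100 mm3, and tumours were excised on day 16. The drug propafenone blocks cardiac sodium channels and is used against arrhythmia, and the antibody targets PD-1, a receptor that restrains T cells. The labels give no age, dose, implantation site or dissection margin, and do not say whether the propafenone mice also received IgG. They do not say whether any tumours shared an animal, so p-values measure the spread between these samples, which may in part be technical.

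White adipocytes store triglyceride in a large lipid droplet coated with perilipins, take up fatty acids released from lipoproteins by lipoprotein lipase, and secrete adipokines into the blood. Most of this programme is switched on by the nuclear receptor PPARG together with C/EBP factors. Not all 10 genes are restricted to adipocytes: as background, Lpl and Car3 are also strongly expressed in skeletal muscle, Lpl and Pparg in macrophages, and Fabp4 in capillary endothelium and macrophages.

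The RefSeq promoter table of build GRCm38.p6 held 10 start sites of 7 of these genes (Adipoq, Cfd, Retn, Plin1, Plin4, Cidec and Pparg), each covering 250 bases before to 50 bases after the start. A direct repeat of the letters AGGNCA in one orientation with 1 base between the copies, the element bound by PPARG with its partner RXR, was searched on both strands and lay in 0 of the 10 windows, against 0.381% of all 32851 windows. The C/EBP pattern TTNNGCAA, searched on both strands with overlapping matches allowed, lay in 3 of the 10, against 10.8% of all windows. Those 3 belonged to Plin1, the second listed start of Cidec and the third listed start of Pparg. Adipoq is the adipocyte gene with which the others are compared later, and Plin1 and Cidec are lipid droplet genes that hold a C/EBP match. The windows of these genes are shown 5′ to 3′ along the gene's strand, with capitals marking the C/EBP matches.
Adipoq, chr16:23146286-23146585, plus strand: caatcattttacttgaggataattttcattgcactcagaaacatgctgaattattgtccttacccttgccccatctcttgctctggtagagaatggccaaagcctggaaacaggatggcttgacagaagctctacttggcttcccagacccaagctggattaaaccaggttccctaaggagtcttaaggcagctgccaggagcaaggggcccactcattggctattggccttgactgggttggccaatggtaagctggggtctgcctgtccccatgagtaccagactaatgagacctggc
Plin1, chr7:79732727-79733026, minus strand: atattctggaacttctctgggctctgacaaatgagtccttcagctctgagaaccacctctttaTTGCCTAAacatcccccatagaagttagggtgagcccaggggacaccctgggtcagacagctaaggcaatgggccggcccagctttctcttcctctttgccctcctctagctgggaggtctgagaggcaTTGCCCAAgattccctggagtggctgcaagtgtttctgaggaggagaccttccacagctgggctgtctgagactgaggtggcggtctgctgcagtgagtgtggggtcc
Cidec, chr6:113434715-113435014, minus strand: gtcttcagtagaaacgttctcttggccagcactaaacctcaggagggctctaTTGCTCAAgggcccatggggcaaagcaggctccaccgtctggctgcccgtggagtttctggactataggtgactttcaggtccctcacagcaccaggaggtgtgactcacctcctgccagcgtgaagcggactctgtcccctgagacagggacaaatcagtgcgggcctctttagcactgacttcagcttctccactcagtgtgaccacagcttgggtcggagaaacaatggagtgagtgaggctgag
The Plin1 matches lay at bases -187 to -180 and -58 to -51 from the start and the Cidec match at -198 to -191, all on the opposite strand. A match describes the letters only, since no binding was measured, and whether a match goes with a gene's level was not tested.

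The deposited table gives expected counts per gene, which summed to between 55985437 and 64514815 per tumour. Counts were scaled by TMM-adjusted library size to CPM, a relative abundance that compares tumours for one gene. The authors' TPM, which also divides by transcript length, was used to compare levels between genes. Small counts piled up at 4 and 8, so the number of counts per sequenced fragment is not known. A tumour with a count of 0 allows a level of up to 0.0445 to 0.0576 CPM at 3 counts, or 0.178 to 0.231 CPM if 4 counts stood for each fragment, for counting error only. The 10 melanocyte markers summed to 19400 to 20900 CPM in combination, 19800 to 24400 in anti-PD-1, 16400 to 21900 in propafenone and 14900 to 21200 CPM in IgG tumours.

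Mean CPM was highest in combination tumours for 9 of the 10 genes, all but Fabp4, which averaged 26.6 ± 5.30 CPM in combination and 28.6 ± 14.7 CPM in anti-PD-1 tumours (SD, n = 5 each). In TPM, Fabp4 led the combination group at 61.4 ± 12.7, followed by Car3 at 30.8 ± 16.9, Cfd at 14.6 ± 9.37 and Lpl at 10.4 ± 2.54 (SD, n = 5). Pparg averaged 2.21 ± 0.684 TPM, Adipoq 1.82 ± 1.21, Cidec 1.18 ± 1.06, Plin4 0.773 ± 0.530, Retn 0.667 ± 0.537 and Plin1 0.277 ± 0.207 TPM in the same tumours. By mean ± SD, Fabp4 stood clear of Car3 and Lpl clear of Pparg, while the other neighbours in this order overlapped. In bulk tissue, more adipocytes in a sample and more RNA per adipocyte cannot be told apart. In IgG tumours the order was headed by Fabp4 at 45.5 ± 16.4 TPM and Lpl at 3 ± 1.6 TPM, while Car3 stood at 0.539 ± 0.881 and Adipoq at 0.156 ± 0.129 TPM.

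Both groups that received anti-PD-1 held a tumour that was lowest of its group for most of the 10 genes. Combination tumour 3 had the lowest CPM of its group for 9 of the 10 genes and a count of 0 for 5 of them (Adipoq, Plin1, Cfd, Retn and Cidec). Anti-PD-1 tumour 2 was lowest of its group for 7 of the 10 and at 0 for 5 (Adipoq, Cfd, Retn, Cidec and Car3). Such a tumour was not particular to these groups: propafenone tumour 1 was lowest of its group for 6 of the 10 and at 0 for 2 (Plin4 and Cidec). Combination tumour 3 and anti-PD-1 tumour 2 were picked from the values of these same genes. Neither was flagged for any of the 10 genes by the check for large gaps given at the end, which used linear CPM. On that scale a tumour near 0 can hardly be flagged where the other tumours are high and widely spread. The check therefore does not show that these tumours were ordinary. The members called, the fold changes nearest to a call and the closest correlations are also given without these tumours.

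**Figure D1:**
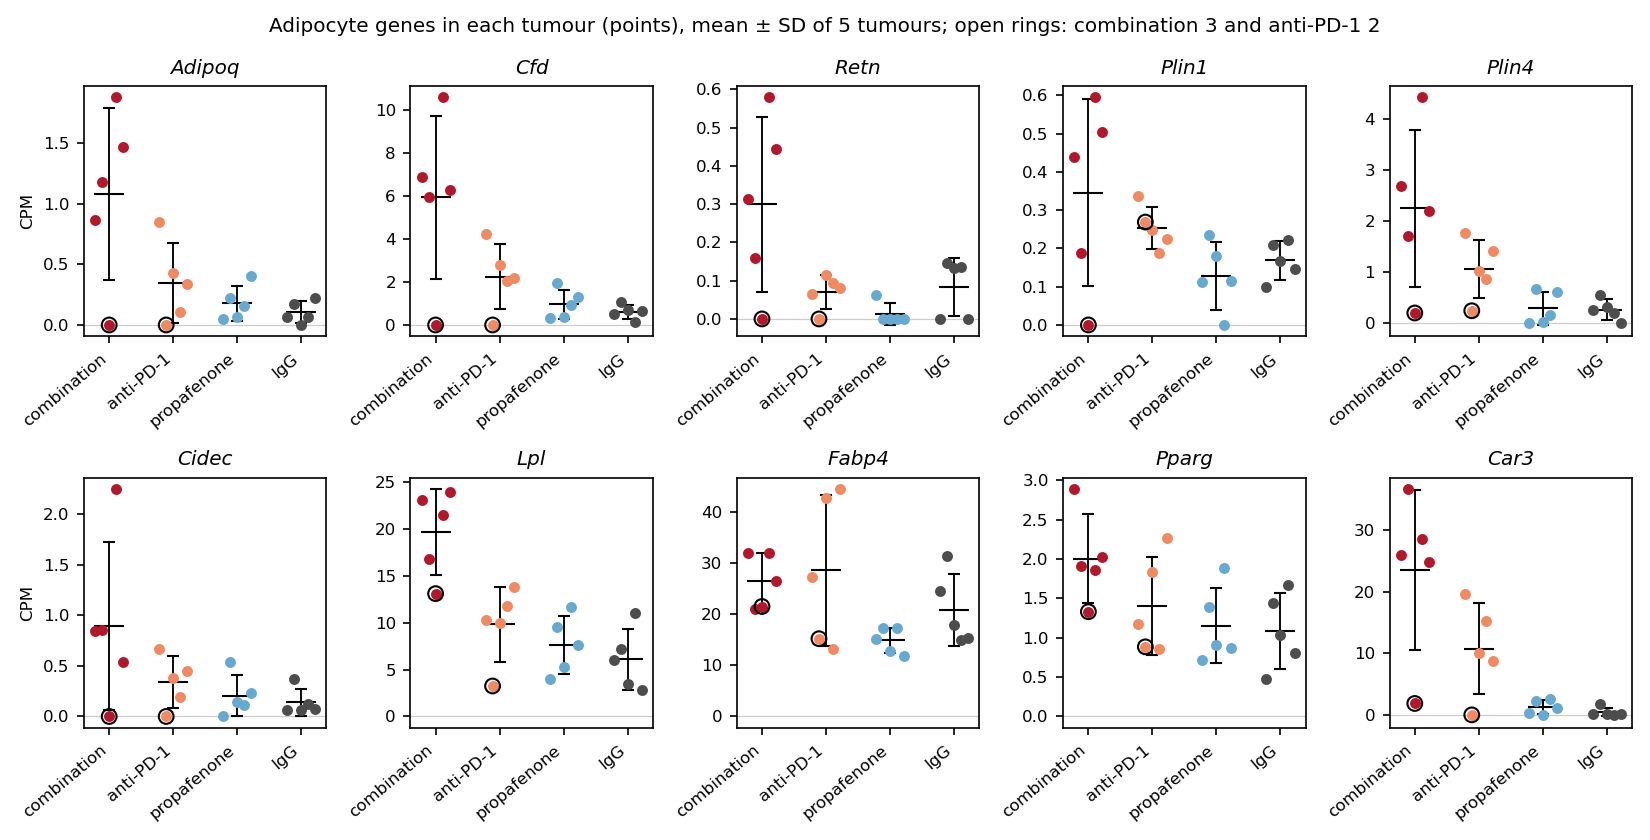
CPM of each of the 10 adipocyte genes (one panel per gene, linear axes with their own scale) in every tumour of the combination, anti-PD-1, propafenone and IgG groups; lines show the mean ± SD of 5 tumours and open rings mark combination tumour 3 and anti-PD-1 tumour 2. The ringed combination tumour lies at or near 0 for Adipoq, Cfd, Retn, Plin1, Plin4 and Cidec, while all 5 combination tumours lie above all 5 IgG tumours for Lpl and Car3.

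Of the secreted products, Adipoq encodes adiponectin, an insulin-sensitising hormone made almost only by adipocytes. Adipoq stood at 0.863, 1.18, 0, 1.88 and 1.47 CPM in combination tumours, 0.847, 0, 0.432, 0.110 and 0.338 CPM in anti-PD-1 tumours, 0.0477, 0.220, 0.0650, 0.159 and 0.407 CPM in propafenone tumours, and 0.0654, 0.177, 0, 0.0682 and 0.221 CPM in IgG tumours. All combination tumours but tumour 3 lay above every propafenone and IgG tumour. Its log2 fold change was 3.33 ± 1.02 (SE) for combination against IgG and missed the threshold of 0.05 (edgeR quasi-likelihood test, Benjamini-Hochberg adjusted p = 0.0611 over 15875 genes). Without combination tumour 3 the adjusted p was 0.0387 and without anti-PD-1 tumour 2 it was 0.0380.

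Cfd encodes complement factor D, also called adipsin, the serine protease that starts the alternative complement pathway. Cfd stood at 6.89, 5.96, 0, 10.6 and 6.28 CPM in combination tumours, 4.25, 0, 2.78, 2.05 and 2.19 CPM in anti-PD-1 tumours, 0.302, 1.94, 0.357, 0.924 and 1.29 CPM in propafenone tumours, and 0.523, 1.05, 0.697, 0.119 and 0.663 CPM in IgG tumours. As for Adipoq, combination tumour 3 and anti-PD-1 tumour 2 were at 0. The remaining tumours of both groups lay above every IgG tumour for Cfd, whereas for Adipoq anti-PD-1 tumour 4 lay below IgG tumours 2 and 5. The log2 fold change was 3.28 ± 1.03 for combination against IgG (adjusted p = 0.0691), and the adjusted p was 0.0336 without combination tumour 3 and 0.0320 without anti-PD-1 tumour 2. Retn encodes resistin, an adipocyte hormone in the mouse, and was the 1 gene of the 10 that the filter on low counts removed. It ranged from 0 to 0.579 CPM in combination tumours (median 0.314) and from 0 to 0.116 CPM in anti-PD-1 tumours (median 0.0806), against 0 to 0.145 CPM in IgG tumours (median 0.133). In propafenone tumours Retn was 0.0636 CPM in tumour 1 and 0 in the other 4. Fitted with no filter, Retn differed between combination and IgG tumours by a log2 fold change of 1.82 (adjusted p = 0.365).

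Of the genes of the lipid droplet, Plin1 encodes perilipin 1, the coat protein that gates lipolysis in adipocytes, Plin4 encodes a perilipin of nascent droplets that is also expressed in muscle, and Cidec encodes a protein that fuses droplets. Plin4 stood at 2.70, 1.72, 0.206, 4.43 and 2.21 CPM in combination tumours, 1.77, 0.250, 1.03, 0.867 and 1.42 CPM in anti-PD-1 tumours, 0, 0.677, 0.0325, 0.159 and 0.619 CPM in propafenone tumours, and 0.262, 0.565, 0.332, 0.205 and 0 CPM in IgG tumours. Apart from combination tumour 3 and anti-PD-1 tumour 2, both groups lay above all propafenone and IgG tumours. The log2 fold change for combination against IgG was 3.03 ± 0.909 (adjusted p = 0.0577). Plin4 passed in the fits without combination tumour 3 (adjusted p = 0.0488), without anti-PD-1 tumour 2 (0.0476) and without propafenone tumour 1 (0.0464). Plin4 overlaps Hdgfl2 on the other strand and the strand setting of the counting is not given in the sources used here, so reads of the pair may be shared.

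Cidec ranged from 0 to 2.25 CPM in combination tumours (median 0.848), 0 to 0.671 in anti-PD-1 tumours (median 0.382), 0 to 0.535 in propafenone tumours (median 0.146) and 0.0654 to 0.371 CPM in IgG tumours (median 0.0737). Its log2 fold change was 2.66 ± 1.02 for combination against IgG (adjusted p = 0.118), with overlapping ranges. Plin1, the lowest of the tested genes by mean in combination tumours, ranged from 0 to 0.595 CPM in combination tumours (median 0.440), 0.189 to 0.336 in anti-PD-1 tumours (median 0.249), 0 to 0.236 in propafenone tumours (median 0.114) and 0.0981 to 0.222 CPM in IgG tumours (median 0.166). Plin1 differed by 1.03 ± 0.717 on the log2 scale between combination and IgG tumours (adjusted p = 0.398).

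Lpl, which encodes lipoprotein lipase, the enzyme that frees fatty acids from circulating triglyceride, separated the groups most cleanly. Lpl stood at 23.1, 16.8, 13.1, 21.5 and 23.9 CPM in combination tumours, 10.3, 3.25, 10, 11.8 and 13.8 CPM in anti-PD-1 tumours, 4.02, 9.51, 5.25, 11.7 and 7.66 CPM in propafenone tumours, and 6, 7.2, 3.47, 11 and 2.78 CPM in IgG tumours. Every combination tumour, tumour 3 included, lay above every propafenone and IgG tumour, whereas 1 anti-PD-1 tumour at 13.8 CPM exceeded the lowest combination tumour at 13.1 CPM. Lpl was higher in combination than in IgG tumours by a log2 fold change of 1.69 ± 0.380 (adjusted p = 0.0240), and higher than in propafenone tumours by 1.37 ± 0.376 (adjusted p = 0.0473). It was the 1 gene of the 10 called in both comparisons. The call against IgG was lost on leaving out combination tumour 1, 4 or 5 or IgG tumour 1, 3 or 5, singly, with adjusted p-values from 0.0515 to 0.0785 and log2 fold changes from 1.53 to 1.69.

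Fabp4 encodes the fatty acid carrier of adipocytes and was the most abundant of the 10 in TPM. It stood at 31.9, 21.0, 21.5, 31.9 and 26.5 CPM in combination tumours, 27.2, 15.2, 42.7, 13.2 and 44.5 CPM in anti-PD-1 tumours, 15.1, 17.2, 12.8, 17.3 and 11.9 CPM in propafenone tumours, and 24.5, 31.3, 17.8, 14.9 and 15.4 CPM in IgG tumours. The combination tumours lay above all propafenone tumours but within reach of the IgG tumours, and the anti-PD-1 tumours had the widest spread. Fabp4 differed by a log2 fold change of 0.36 ± 0.289 between combination and IgG tumours (95% interval -0.25 to 0.96, adjusted p = 0.478) and by -0.10 between combination and anti-PD-1 tumours (95% interval -0.71 to 0.50). Against propafenone tumours the value was 0.84 ± 0.291 (adjusted p = 0.0957).

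Pparg encodes the nuclear receptor that directs adipocyte differentiation. It ranged from 1.33 to 2.89 CPM in combination tumours (median 1.91), 0.851 to 2.27 in anti-PD-1 tumours (median 1.18), 0.716 to 1.88 in propafenone tumours (median 0.910) and 0.474 to 1.67 CPM in IgG tumours (median 1.03). The groups overlapped, and the log2 fold change of 0.88 ± 0.356 for combination against IgG did not pass (adjusted p = 0.137). Pparg overlaps the antisense gene Gm44079, with the same doubt over strand as for Plin4.

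Car3 encodes carbonic anhydrase 3, an abundant cytosolic enzyme of adipocytes and slow muscle fibres, and had the largest fitted difference of the 9 tested genes for combination against IgG. Car3 stood at 25.9, 36.7, 1.85, 28.6 and 24.8 CPM in combination tumours, 19.7, 0, 10.1, 15.2 and 8.67 CPM in anti-PD-1 tumours, 0.334, 2.27, 0, 2.52 and 1.16 CPM in propafenone tumours, and 0.147, 1.69, 0.199, 0 and 0.184 CPM in IgG tumours. Combination tumour 3 lay just above the highest IgG tumour, IgG tumour 2, and anti-PD-1 tumour 2 was at 0 while the other 4 anti-PD-1 tumours lay above every propafenone and IgG tumour. The log2 fold change was 5.70 ± 1.31 for combination against IgG (adjusted p = 0.0267). IgG tumours 1, 3, 4 and 5 held 9, 12, 0 and 10 counts of Car3. These lie at or below the level that a count of 0 allows if 4 counts stood for each fragment, which makes the fold change coarse. Its size depended on IgG tumour 2: without that tumour Car3 stood at 7.45 for combination against IgG, 6.32 for anti-PD-1 against IgG and 3.22 for propafenone against IgG, and over all 20 fits without 1 tumour the first of these ran from 5.40 to 7.45. The same 6 tumours as for Lpl ended this call when left out singly, at adjusted p-values from 0.0515 to 0.0824. Under limma voom, which weights counts by their precision, the value was 6.72 with an adjusted p of 0.341.

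Counted over the 9 tested genes, combination against IgG gave 2 higher (Lpl and Car3) and 0 lower, where 2.24% of all 15875 genes tested were called higher and 2.63% lower. All 9 had a positive log2 fold change, against 48.2% of all genes, with a median of 2.66 against -0.01 over all genes. At an unadjusted p under 0.05 there were 7 of the 9 (Adipoq, Plin4, Lpl, Cfd, Cidec, Pparg and Car3), against 23.6% of all genes. The 5 combination values lay wholly above the 5 IgG values for 2 of the 9, Lpl and Car3, against 4.72% of all genes. The filter could pass a low gene through the group in which it was high, and these counts carry that choice. The genes were also chosen with earlier results of these data known, and many of them moved together across tumours. The 9 are therefore not separate observations, here or in the comparisons below, and the shares of all genes are given for scale only. Under DESeq2 and with counts divided by 4, an alternative added after the values were seen, 5 of the 9 were called, with Adipoq, Cfd and Plin4 joining Lpl and Car3, and the calls over all genes were 1423 and 724, against 774 before. Leaving out combination tumour 3 and anti-PD-1 tumour 2 together, also added later, gave 6, the same 5 and Cidec, with 694 over all genes. With combination tumour 1, 4 or 5 or IgG tumour 1, 3 or 5 left out singly, 0 of the 9 were called, in fits that called 5 to 202 of all genes.

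Against propafenone, combination tumours were higher in 1 of the 9 (Lpl) and lower in 0, where 1.67% of all genes were higher and 2.21% lower. All 9 log2 fold changes were positive, against 49% of all genes, with a median of 2.12, and 8 of the 9 (all but Plin1) had an unadjusted p under 0.05, against 23.2% of all genes. The ranges did not overlap for 2, Lpl and Fabp4, against 3.65% of all genes. Car3 at 4.23 ± 1.20 (adjusted p = 0.0541) and Plin4 at 2.91 ± 0.902 (adjusted p = 0.0666) came nearest among the rest, followed by Fabp4 as given above. The Lpl call held in 5 of the 20 fits that left out 1 tumour, namely anti-PD-1 tumour 2, propafenone tumour 4 and IgG tumours 3, 4 and 5, and its log2 fold change ran from 1.21 to 1.58 over all 20. Lpl also missed the threshold with no filter (adjusted p = 0.0758), with DESeq2-type size factors (0.0507), with library totals (0.0560) and under limma on log2(TPM + 0.1) (0.0510), which called Plin4 instead. Without IgG tumour 2 the 1 gene called was Car3.

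Anti-PD-1 tumours had a mean CPM between those of combination and IgG tumours for 8 of the 10 genes, all but Fabp4, given above, and Retn, at 0.0711 CPM in anti-PD-1 and 0.0829 CPM in IgG tumours. Against IgG, edgeR called 0 of the 9 and 0% of all genes, and 2 of the 9 (Plin4 and Car3) had an unadjusted p under 0.05, against 7.58% of all genes. All 9 log2 fold changes were positive, against 49.7% of all genes, with a median of 1.27, and 0 of the 9 ranges lay wholly above, against 0.454% of all genes. Car3 differed by 4.57 ± 1.26 (adjusted p = 0.463) and Plin4 by 1.96 ± 0.888 (adjusted p = 0.630), and the adjusted p-values of the 9 ran from 0.463 to 0.923. Without combination tumour 3 and anti-PD-1 tumour 2, Car3 stood at 4.90 (adjusted p = 0.0788), Plin4 at 2.21 (0.338) and Adipoq at 2.02 (0.317), and 0 of the 9 and 8 of all genes were called. In the direct comparison, combination against anti-PD-1, 0 of the 9 and 0% of all genes were called and 8 of the 9 were positive, against 47.9% of all genes, with a median of 1.07. Lpl at 1 ± 0.373 (adjusted p = 0.446) was the 1 with an unadjusted p under 0.05, against 9.78% of all genes, and 0 ranges lay wholly above, against 1.15% of all genes. Neither set of values shows that the groups were alike: the 95% interval of Adipoq for combination against anti-PD-1 reached from -0.30 to 3.56.

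Propafenone alone gave the median nearest to 0 of the 5 comparisons between groups. Against IgG, 0 of the 9 and 0% of all genes were called, and 0 of the 9 had an unadjusted p under 0.05, against 4.75% of all genes. Positive log2 fold changes were seen for 7 of the 9, against 50.9% of all genes, with a median of 0.32, from -0.48 for Fabp4 to 1.48 for Car3, and 0 ranges lay wholly above, against 0.529% of all genes. The adjusted p-values ran from 0.914 to 0.990. The interaction, which is the combination difference minus the sum of both single differences on the log2 scale, was positive for 8 of the 9, against 48.3% of all genes, with a median of 0.74. Of the 9, 0 were called, as were 0% of all genes, and 0 had an unadjusted p under 0.05, against 3.04% of all genes, so a departure of the combination from the sum was not detectable for these genes. DESeq2, limma voom and limma on TPM also called 0 of the 9 in these comparisons (anti-PD-1 or propafenone against IgG, combination against anti-PD-1, and the interaction). The 5 comparisons between groups share tumours, IgG in 3 of them and the combination in 3, so their values are not independent of one another.

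**Figure D2:**
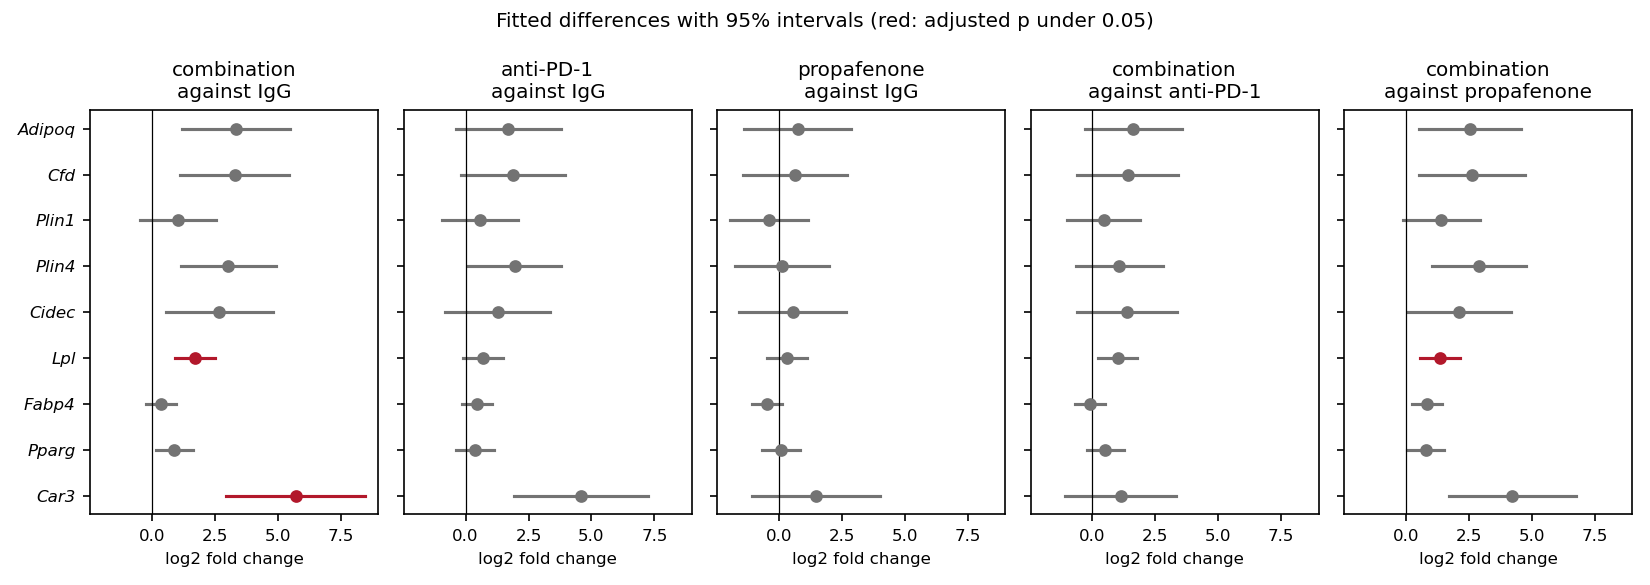
Fitted log2 fold changes (points) with 95% intervals (bars) of the 9 tested adipocyte genes in the 5 comparisons between groups, with red marking an adjusted p under 0.05. Lpl at 1.69 and Car3 at 5.70 are red for combination against IgG and Lpl at 1.37 for combination against propafenone; the intervals of Adipoq, Cfd, Plin4, Cidec and Car3 are wider than those of Lpl, Fabp4 and Pparg.

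Across tumours the adipocyte genes followed one another to differing degrees, here described by Pearson's r of log2(CPM + 0.5) over 20 tumours with group means removed. Plin4 and Cidec (r = 0.913), Plin4 and Cfd (0.912), Cfd and Car3 (0.902) and Adipoq and Cfd (0.894) were the closest pairs. Without combination tumour 3 and anti-PD-1 tumour 2, these values were 0.802, 0.782, 0.730 and 0.657 in the same order. Lpl, Fabp4 and Pparg followed Adipoq less closely, at 0.410, 0.382 and 0.312, and at 0.067, 0.249 and 0.00882 without both tumours. Lpl and Pparg had an r of 0.641 with each other and Fabp4 and Pparg 0.559, or 0.582 and 0.488 without both tumours. The pairs did not divide into separate sets: Lpl had an r of 0.678 with Car3 and 0.602 with Plin4, above the 0.329 of Plin1 with Car3. Without both tumours these 3 values were 0.376, 0.442 and -0.122. These values share libraries and depth, and the values near 0 make them coarse: without combination tumours 3 and 4, the farthest from the median of Adipoq, the r of Adipoq with Cfd was 0.745, with Plin1 0.176 and with Retn 0.0734.

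The 5 other genes closest to Adipoq among those averaging at least 1 CPM were Mup22 (r = 0.889), Xirp1 (0.858), Ankrd1 (0.845), Hspb1 (0.839) and Casq1 (0.818), where the median of all genes tested was -0.01. Xirp1 and Ankrd1 encode striated muscle proteins, Casq1 encodes the calcium store of fast muscle fibres, Hspb1 encodes a small heat shock protein, and Mup22 is a major urinary protein of a near-identical gene family, so its counts are uncertain. Without combination tumours 3 and 4 the 5 values ran from 0.608 for Hspb1 to 0.883 for Mup22. The 5 closest to Fabp4 were a different group: Cd36 (r = 0.810), Psph (0.807), Zeb2os (0.797), Mb21d2 (0.763) and Cd300lg (0.755), against a median of 0.003. Cd36 encodes a fatty acid transporter of adipocytes, endothelium and macrophages and Cd300lg a receptor of capillary endothelium. Zeb2os is an antisense gene whose reads cannot be told from those of its partner without strand.

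Skeletal muscle transcripts moved with the adipocyte genes. The summed CPM of Adipoq, Plin1, Plin4, Cfd, Retn and Cidec was 12.1, 10.1, 0.206, 20.4 and 11.4 in combination tumours, 7.94, 0.519, 4.99, 3.50 and 4.71 in anti-PD-1 tumours, 0.525, 3.60, 0.780, 1.35 and 2.66 in propafenone tumours, and 1.01, 2.52, 1.39, 0.870 and 1.11 in IgG tumours. The summed CPM of 18 skeletal muscle markers in the same tumours was 562, 674, 99.7, 641 and 502 in combination, 404, 62.4, 260, 312 and 260 in anti-PD-1, 83.5, 137, 107, 127 and 163 in propafenone, and 72.9, 160, 77.7, 78.3 and 65.4 in IgG. Combination tumour 3 and anti-PD-1 tumour 2 were the lowest of their groups in both sums, and IgG tumour 2 was the highest of its group in both. Of the 18 markers, 10 were higher in combination than in IgG tumours and 0 lower (edgeR, adjusted p under 0.05), against 2.24% and 2.63% of all genes. Their median log2 fold change was 4.05, and 0 of the 18 were at 0 in every tumour.

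**Figure D3:**
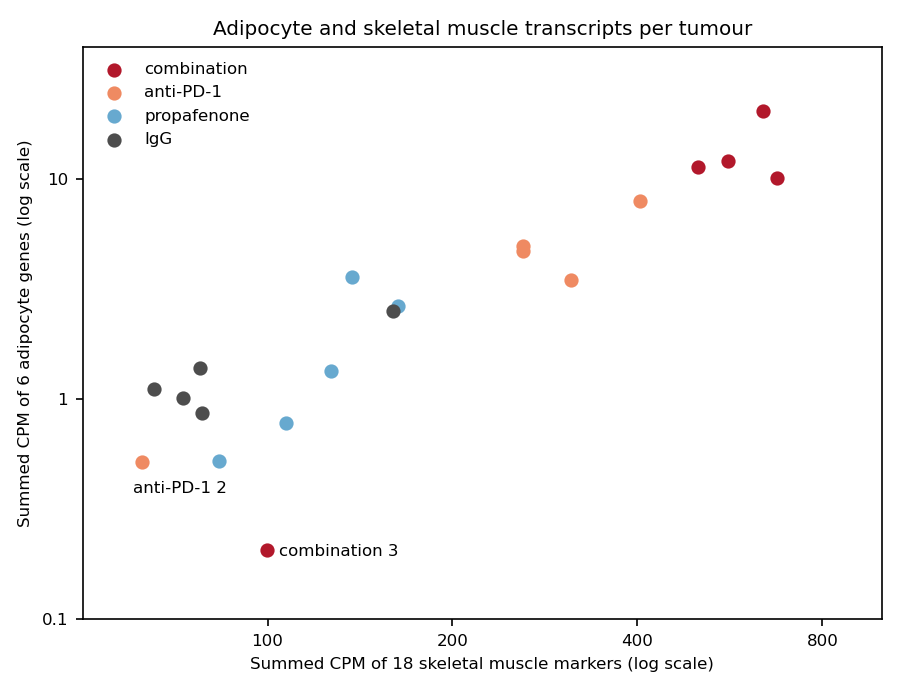
Summed CPM of 6 adipocyte genes (Adipoq, Plin1, Plin4, Cfd, Retn and Cidec; vertical log axis) against summed CPM of 18 skeletal muscle markers (horizontal log axis), one point per tumour, coloured by group. The 4 combination tumours other than tumour 3 lie at the upper right, at 502 to 674 CPM of muscle and 10.1 to 20.4 CPM of adipocyte transcripts, while combination tumour 3 and anti-PD-1 tumour 2 lie at the lower left among the propafenone and IgG tumours.

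Gene by gene, with group means removed, the mean of the muscle list had an r of 0.960 with Car3, 0.878 with Cfd, 0.841 with Plin4, 0.781 with Cidec, 0.771 with Adipoq and 0.743 with Lpl. The rank correlations (Spearman's rho) were 0.895 for Car3, 0.780 for Cfd, 0.752 for Plin4, 0.758 for Cidec, 0.624 for Adipoq and 0.576 for Lpl. Without anti-PD-1 tumour 2 and combination tumour 3, the r was 0.851 for Car3, 0.580 for Cfd, 0.644 for Plin4, 0.550 for Cidec, 0.433 for Adipoq and 0.573 for Lpl. For Retn, Pparg, Fabp4 and Plin1 the r was 0.580, 0.503, 0.477 and 0.425, the rho was 0.311, 0.337, 0.365 and 0.209, and the r without both tumours was 0.139, 0.350, 0.274 and 0.0846. The relations of Retn and Plin1 thus rested on those tumours. When the score of the muscle list entered the edgeR fit as covariate, 0 of the 9 adipocyte genes and 16 of all 15875 genes were called for combination against IgG, Lpl stood at 0.38 (adjusted p = 0.682) and Car3 at 0.57 (adjusted p = 0.781), and Adipoq, Plin4, Fabp4, Cfd and Cidec turned negative. For combination against propafenone, 0 of the 9 and 636 of all genes were called with the covariate, against 1 and 616 without it. The muscle score itself differed between the groups, so the fit also takes out differences between groups that move with it.

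Among the other tissue lists, macrophage markers followed Pparg and Lpl. The macrophage list had an r of 0.639 with Pparg (rho 0.547), above the 0.503 of the muscle list (rho 0.337). With Lpl its r was 0.556, below the 0.743 of the muscle list, while its rho was 0.614, against 0.576 for the muscle list. With the other 8 its r ran from -0.13 to 0.21. Without IgG tumours 3 and 4, the farthest from the median of that list, the r was 0.636 with Pparg and 0.419 with Lpl. Its 10 markers summed to 205 to 452 CPM in combination tumours, 123 to 233 in anti-PD-1 tumours, 62.7 to 197 in propafenone tumours and 39.8 to 184 CPM in IgG tumours. Of the 10, 6 were higher in combination than in IgG tumours (edgeR, adjusted p under 0.05), against 2.24% of all genes. Macrophages express both Pparg and Lpl as background, and the part of their transcripts in the Lpl difference was not tested. The preadipocyte and fibroblast list ran from -0.52 with Cfd to 0.20 with Pparg, and the value for Cfd rested on few tumours, with a rho of -0.15 and an r of -0.13 without combination tumour 3 and IgG tumour 4. Of its 10 markers, 2 were higher in combination than in IgG tumours and 5 higher than in propafenone tumours, against 2.24% and 1.67% of all genes. Its sum was 400 to 981 CPM in combination, 205 to 711 in anti-PD-1, 77.9 to 201 in propafenone and 97.3 to 391 CPM in IgG tumours, and the highest combination value belonged to tumour 3, the one with the fewest adipocyte transcripts. The endothelium list stood at 0.26 with Fabp4 and 0.36 with Pparg, and its sum overlapped between groups, at 436 to 531 CPM in combination, 428 to 543 in anti-PD-1, 321 to 476 in propafenone and 400 to 539 CPM in IgG tumours. The keratinocyte list was positive with all 10, from 0.16 to 0.40, or -0.12 to 0.39 without anti-PD-1 tumour 3 and propafenone tumour 2. Its median log2 fold change against IgG was 6.92 for combination, 6.32 for anti-PD-1 and 6.21 for propafenone, with 0 of 10 markers called. The red blood cell list ran from -0.52 to 0.04 and the melanocyte list from -0.345 to 0.0345. For combination against IgG, 2 of 8 red blood cell markers were lower (median -3.70), against 2.63% of all genes.

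**Figure D4:**
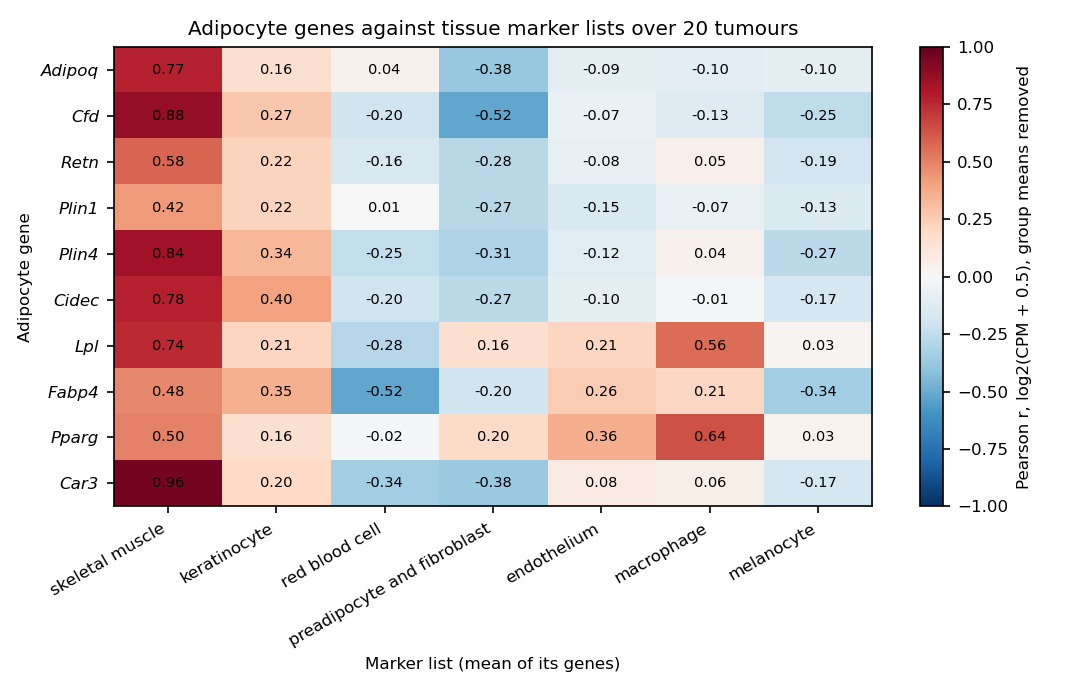
Pearson's r between each of the 10 adipocyte genes (rows) and the mean of 7 tissue marker lists (columns), in log2(CPM + 0.5) over 20 tumours with group means removed; red is positive and blue negative. The skeletal muscle column is positive for all 10 genes, from 0.42 for Plin1 to 0.96 for Car3. The keratinocyte column is also positive for all 10, from 0.16 for Pparg to 0.40 for Cidec. The macrophage column stands out for Lpl and Pparg alone at 0.56 and 0.64.

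Genes of fat storage outside the 10 did not follow them as groups. For combination against IgG, the 8 adipokines and adipokine receptors gave 0 calls and a median log2 fold change of -0.04, and the gene with the smallest p was Adipor1, an adiponectin receptor, at -0.23 ± 0.0697 (adjusted p = 0.0566). Lep, which encodes the adipocyte hormone leptin and was chosen after its values were seen, was 0.340 ± 0.267 CPM in combination tumours and 0.0295 ± 0.0659 CPM in IgG tumours (SD, n = 5 each), at a log2 fold change of 3.51 ± 1.33 (adjusted p = 0.116). Lipid droplet and lipolysis genes, 10 tested of 13, gave 0 calls and a median of -0.07, with Abhd5, the activator of adipose triglyceride lipase, at -0.28 ± 0.103 (adjusted p = 0.109). Among 8 tested of 10 other white adipocyte genes 0 were called, with a median of 0.16 and Cav1, a caveolar coat protein, at 0.32 ± 0.140 (adjusted p = 0.170). Over all genes tested, 2.24% were called higher and 2.63% lower, so 0 calls in lists of this size lie near that share. A threshold miss in these lists does not show that the genes were level.

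Enzymes of fatty acid and triglyceride synthesis included genes that fell. Dgat2, which completes triglyceride synthesis, was 4.65 ± 0.985 CPM in combination tumours and 9.83 ± 1.9 CPM in IgG tumours, at a log2 fold change of -1.08 ± 0.290 (adjusted p = 0.0387). Pck1, the enzyme of glyceroneogenesis, was 0.413 ± 0.319 CPM in combination tumours and 0.0161 ± 0.0361 CPM in IgG tumours and was higher by 4.47 ± 1.27 on the log2 scale (adjusted p = 0.0470). Of the 14 genes of fatty acid uptake and triglyceride synthesis these were the 2 called, 1 in each direction, and the median was -0.12. Over all genes, 2.24% were called higher and 2.63% lower. Me1, the malic enzyme that supplies NADPH, was 117 ± 10.8 CPM in combination tumours and 158 ± 17.5 CPM in IgG tumours, at -0.43 ± 0.103 (adjusted p = 0.0276), and was the 1 of 9 tested fatty acid synthesis genes called, where the median was -0.01.

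Regulators gave 1 call of 9 genes, where 2.24% of all genes were called higher and 2.63% lower. The gene called was Cebpa, which encodes the C/EBP factor of adipocyte maturation and is also expressed in myeloid cells. Cebpa was 3.98 ± 0.697 CPM in combination tumours and 1.27 ± 0.820 CPM in IgG tumours. Its ranges did not overlap, where 4.72% of all genes lay wholly above in combination tumours. The log2 fold change was 1.64 ± 0.414 (adjusted p = 0.0308), and the median of the regulators was 0.43. Of the thermogenic genes, 5 tested of 7, Prdm16 was lower, at 206 ± 10.1 CPM in combination tumours and 280 ± 39.9 CPM in IgG tumours (-0.44 ± 0.106, adjusted p = 0.0267). Ucp1, the uncoupling protein that defines brown fat, had a count of 0 in every tumour. Which cells held the Prdm16 transcripts was not tested. These calls too depended on single tumours and on the fit. Over the 20 fits without 1 tumour, Cebpa was called in 14, Me1 in 13, Dgat2 and Prdm16 in 11 each and Pck1 in 6. Cebpa lost its call without combination tumour 1, 4 or 5 or IgG tumour 1, 3 or 5 (adjusted p up to 0.0853), and Me1 without these or combination tumour 2 (up to 0.0933). Dgat2 lost it without any 1 combination tumour or IgG tumour 1, 2, 3 or 5 (up to 0.107), and Prdm16 without any 1 combination tumour or IgG tumour 1, 3, 4 or 5 (up to 0.0848). Pck1 lost it without most single tumours of all 4 groups (up to 0.120). Pck1 also missed the threshold with DESeq2-type size factors, library totals, no filter, limma voom and limma on log2(TPM + 1), at adjusted p-values from 0.0529 to 0.173. Dgat2 missed it with library totals (0.0580), no filter (0.0509) and without combination tumour 3 and anti-PD-1 tumour 2 (0.0634), Me1 with library totals (0.0601) and on log2(TPM + 1) and log2(TPM + 0.1) (0.0942 and 0.0959), and Prdm16 on both TPM scales (0.277 and 0.276). With the muscle covariate all 5 lost their calls, at 1.14 for Cebpa, -0.89 for Dgat2, -0.22 for Me1, -0.13 for Prdm16 and -2.03 for Pck1.

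Against propafenone tumours 3 of these genes were lower in combination tumours, namely Dgat2 at -1.11 ± 0.290 (adjusted p = 0.0401), Me1 at -0.49 ± 0.103 (0.0261) and Prdm16 at -0.53 ± 0.106 (0.0219). Cav1 was higher, at 33.1 ± 4.69 CPM in combination tumours and 23.2 ± 2.72 CPM in propafenone tumours (0.52 ± 0.140, adjusted p = 0.0453). Over all genes, 2.21% were called lower and 1.67% higher. No other gene of the 7 wider lists passed in this comparison, and in the fits without 1 tumour Me1 was called in 16 of 20, Prdm16 in 15, Dgat2 in 10 and Cav1 in 8, with propafenone tumour 3 giving the highest adjusted p of each (0.113, 0.102, 0.185 and 0.121). Dgat2 also missed the threshold with library totals, no filter, limma voom, both TPM scales, the 2 groups only and without combination tumour 3 and anti-PD-1 tumour 2 (0.0514 to 0.0669), and Cav1 with no filter (0.0554), the replicate block (0.0609) and without both tumours (0.0566). With the muscle covariate Dgat2 stood at -0.97, Me1 at -0.34 (0.105) and Prdm16 at -0.31 (0.116), none of them called. Cav1 went the other way: it stood at 0.80 with the covariate and stayed called (edgeR, adjusted p = 0.0138). In the comparisons of single agents with IgG and of the combination with anti-PD-1, none of the genes of these lists passed (edgeR).

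**Figure D5:**
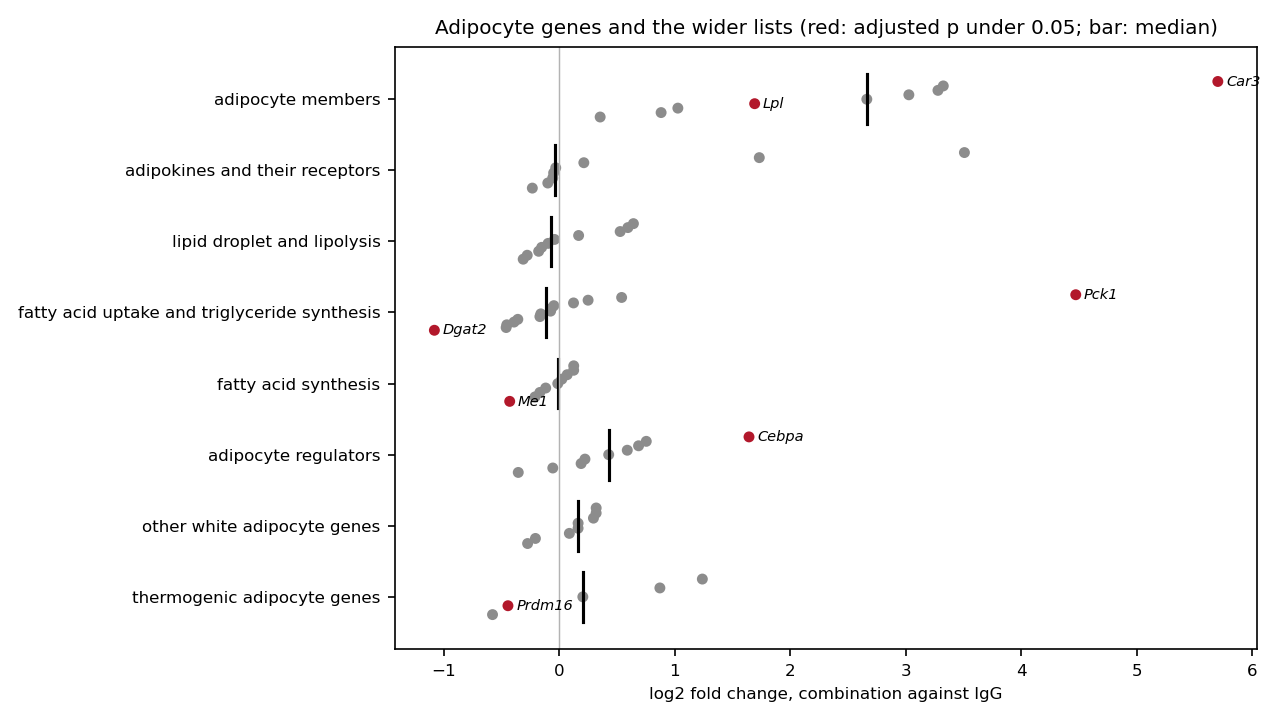
Log2 fold changes for combination against IgG (horizontal axis) of the 9 tested adipocyte genes and of the tested genes of 7 wider adipocyte lists (rows); each point is a gene, black bars are medians and red marks an adjusted p under 0.05. The median of the adipocyte genes is 2.66, while the medians of the wider lists lie between -0.12 and 0.43.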

How the data were processed

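RNA of 20 tumours was sequenced from SMARTER mRNA libraries, per the labels. Builds GRCm38 and mm10 and the tools HISAT2 2.2.1, SAMtools 1.9 and FastQC are listed in the submitters' processing notes; the counting tool, annotation release and strand setting are not given in the sources used here. The deposited files hold expected counts per gene, stored whole and not normalized, and the authors' TPM. Depth was 55985437 to 64514815 expected counts per tumour.

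Genes were tested with edgeR 4.0.16 in R 4.3.3 on the deposited expected counts (TMM; filterByExpr by group; quasi-likelihood, robust; 16 residual degrees of freedom, common biological coefficient of variation 0.252). The filter kept 15875 of 32285 genes with 99.98% of the counts, and 9 of the 10 adipocyte genes. The 6 contrasts were 5 pairs of groups and the interaction, adjusted by Benjamini-Hochberg over all tested genes. Standard errors were taken from the log2 fold change and its F, and intervals are 95%. The script was tested on simulated data. Alternatives used DESeq2 1.42.0, limma 3.58.1 (voom, and log2(TPM + 1) and log2(TPM + 0.1) on the authors' TPM), other scalings, no filter, the 2 groups only, a replicate block, a muscle list covariate, single tumours left out, and 2 settings chosen after seeing the data. Within groups, log2 CPM correlated at 0.977 to 0.996, and no columns were identical.

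The genes and all lists were chosen with earlier results of these data known. Named are all 10 genes, for each wider list up to 3 called genes a direction or else the gene with the smallest p, and the 5 genes most like Adipoq and most like Fabp4; Lep was named after its values were seen. Replicate numbers were not used to pair tumours in the main fit. Gene positions are GENCODE M21 on GRCm38, and promoters are RefSeq's.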

Additional observations from a re-analysis of the deposited data

Results flagged for a closer look

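In 40 sets of 5 tumours, 1 set for each of the 10 genes in each group, 3 had a tumour with a large gap to the others. Gaps were taken in linear CPM and judged for a group of that size. The check flags about 1 in 20 sets of independent, normally distributed values. These sets hold values at 0 and genes that move together, so that rate is no measure for them. Car3 in IgG tumour 2 was 1.69 CPM, against 0.199 CPM in the next IgG tumour. Cidec in the same IgG tumour was 0.371 CPM, against 0.119 CPM in the next. That tumour also had the highest skeletal muscle sum of its group, 160 CPM, and its part in these values was not tested. Retn in propafenone tumour 1 was 0.0636 CPM, with a count of 0 in the other 4 propafenone tumours, a level close to that of 3 counts. With the other 4 at 0, any value above 0 would have been flagged.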

How the results depend on the processing

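Of 1705 values of the 9 tested adipocyte genes over 6 comparisons and 32 alternatives, 1583 kept their direction and side of the threshold, 47 turned sign (26 of them with the muscle list covariate), and no gene turned sign in a comparison that called it. For combination against IgG, the 2 adipocyte genes called became 5 under DESeq2, 1 under limma voom, 4 under limma on log2(TPM + 1), 4 with the 2 groups only, 0 with the muscle covariate, 5 with counts divided by 4, 6 without combination tumour 3 and anti-PD-1 tumour 2, and 0 to 5 without single tumours. For combination against propafenone, the 1 called became 0 with DESeq2-type size factors, library totals, no filter or the muscle covariate, 4 under DESeq2, limma on log2(TPM + 1), counts divided by 4 or without both tumours, 3 with the 2 groups only, and 0 to 2 without single tumours; the 1 gene was Plin4 instead of Lpl on log2(TPM + 0.1) and Car3 without IgG tumour 2. The 774 genes of all that were called for combination against IgG became 480 with library totals, 463 with no filter, 1423 under DESeq2, 1786 with the 2 groups only, 16 with the muscle covariate and 5 to 1067 without single tumours. The 616 for combination against propafenone became 347, 335, 1466 and 1069 in the first 4 of these settings, and 636 with the muscle covariate. They became 295 without both tumours and 4 to 1882 without single tumours. Where edgeR called 0 of all genes, DESeq2 called 21 for anti-PD-1 against IgG, 3 for propafenone against IgG, 7 for combination against anti-PD-1 and 2 for the interaction. Anti-PD-1 against IgG gave 8 without both tumours and 0 to 1 without single tumours, and combination against anti-PD-1 gave 2 under limma on log2(TPM + 1) and 1 with the 2 groups only.

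With the replicate block the adipocyte genes called were 2 for combination against IgG and 1 for combination against propafenone, as without it, and all genes called were 829 and 675. Plin4 for propafenone against IgG stood at -0.15 with the block, and Cav1 for combination against propafenone at 0.52 lost its call (adjusted p = 0.0609). Same-numbered tumours of different groups had a mean r of -0.00744 over 30 pairs (-0.483 to 0.521), and 7 of 20 correlated best with their own number. The number that would do so without pairing was not worked out, so these values cannot show whether the numbers pair tumours.

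With the muscle covariate the log2 fold changes that turned sign were, for combination against IgG, Adipoq -2.50, Plin4 -0.53, Fabp4 -0.35, Cfd -3.29, Cidec -3.07, Lep -1.42 and Pck1 -2.03. For anti-PD-1 against IgG they were Adipoq -2.31, Plin4 -0.17, Lpl -0.22, Cfd -2.63, Cidec -2.44 and Pparg -0.14, and for propafenone against IgG Adipoq -0.98, Plin4 -1, Lpl -0.059, Cfd -1.41, Cidec -0.75 and Pparg -0.14. For combination against anti-PD-1 they were Adipoq -0.19, Plin1 -0.055, Plin4 -0.36, Cfd -0.65, Cidec -0.64 and Car3 -0.48, and for combination against propafenone Adipoq -1.52, Cfd -1.87 and Cidec -2.32. Limma voom gave -0.50 for Plin4 and -0.060 for Cidec in propafenone against IgG, -0.46 for Plin1 and 0.039 for Fabp4 in combination against anti-PD-1, and 0.73 for Car3 in the interaction. On TPM, Plin4 for propafenone against IgG was -0.011 (pseudocount 0.1), Fabp4 for combination against anti-PD-1 was 0.12 with either pseudocount, and Car3 in the interaction was 0.61 (pseudocount 1) and 0.49 (pseudocount 0.1). Without single tumours, Plin4 for propafenone against IgG ran from -0.44 to 0.56, Cidec from -0.20 to 1.31 and Pparg from -0.16 to 0.30, Fabp4 for combination against anti-PD-1 from -0.29 to 0.12, and Car3 in the interaction from -2.09 to 0.075. None of these genes but Pck1 was called before in the comparison concerned, and the causes were not tested. Counts near 0 limit Adipoq, Retn, Plin1 and Cidec most, and also limit Car3 in the comparisons with IgG.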
